A study of Mus musculus with 20 samples.

Results

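The genes described here are 9 lymphocyte markers of the mouse, out of 22180 genes measured by array in abdominal skin. The 5 T cell markers are Cd3e, Cd3g, Cd4, Cd8a and Foxp3, and the 4 B cell markers are Cd79a, Cd79b, Cd22 and Ms4a1. They were chosen by name for the cells they mark, with earlier results of these data known. Each gene was read from the array feature that carries its symbol alone and has the highest mean over the 20 arrays, and all 9 had such a feature. Foxp3 also shares a further feature with Ccdc22 and Ppp1r3f, which was not used.

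The mice were of the strain background C57/B6 and were 9 weeks old. In the HFD-IMQ group, mice on a high fat diet (HFD) were given cream with 5% imiquimod (IMQ, sold as Aldara), 62.5 mg each day for 5 days on shaved abdominal skin. The CD-IMQ group received the same cream on a control chow diet (CD), and the HFD-vehicle and CD-vehicle groups received the vehicle on the high fat and the control diet. Skin was taken 24 h after the last day of treatment, and each group had 5 mice with 1 array per mouse. The length of the diet is not given in the sources used here, and the vehicle mice were shaved too, so no group shows untouched skin.

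T cells recognise antigen through the T cell receptor, whose signal is carried into the cell by the CD3 chains. CD4 marks helper T cells and CD8 marks cytotoxic T cells, while the transcription factor FOXP3 defines regulatory T cells. B cells signal through the CD79A and CD79B chains that accompany their surface immunoglobulin, and CD22 restrains that signal. In mouse skin, T cells of the gamma delta lineage populate the epidermis and dermis and can secrete interleukin 17, and repeated imiquimod cream on mouse skin is a common model of psoriasis-like inflammation. CD4 is not exclusive to T cells, since some macrophages and dendritic cells carry it as well.

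The values are log2 signals after robust multi-array averaging (RMA). The medians of the 20 arrays over all features lay between 2.86 and 3.04, and a gene with a mean below all of them is read here as close to background. The mean of Cd8a lay below every array median in all 4 groups, as did those of Cd79a and Ms4a1. Cd22 lay below them in both vehicle groups and above them in both IMQ groups. Cd79b lay below them in HFD-vehicle skin, within their range in both CD groups and above them in HFD-IMQ skin. Cd3e, Cd3g, Cd4 and Foxp3 lay above them in all 4 groups. As a check of the tissue, the keratinocyte gene Krt14 averaged 10.18 in HFD-IMQ skin and 9.23 in HFD-vehicle skin, and 10.16 in CD-IMQ skin and 8.21 in CD-vehicle skin. Differences were tested with limma on all 22180 genes in one fit of the 4 groups, and a gene is called changed where its p-value adjusted by the Benjamini-Hochberg method is below 0.05. In whole skin, fewer cells of a type and less RNA per cell cannot be told apart. In squared distance from their group mean, HFD-IMQ 4 held 30.0% of its group's total, HFD-vehicle 3 held 42.8% and CD-vehicle 3 held 28.4%, and the results are also given without these 3 arrays where that matters.

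The annotated promoter windows of 3 markers are shown because these genes differed in outcome: Cd22 was called in CD-fed mice, while Cd3e and Cd79a were called in neither diet. Each is the 250 bases before a start site in the RefSeq promoter table (build GRCm38.p6), which held a window for 6 of the 9 markers, and for Cd22 and Cd3e this start lies within the outer bounds of the gene. The windows are Cd22 at chr7:30879029-30879278 on the minus strand, Cd3e at chr9:45009612-45009861 on the minus strand and Cd79a at chr7:24897247-24897496 on the plus strand. Capitals mark the letters ACAGGAAGT on either strand, a form of the site with the core GGAA that ETS family transcription factors bind. The motif was picked after the windows had been read.
Cd22: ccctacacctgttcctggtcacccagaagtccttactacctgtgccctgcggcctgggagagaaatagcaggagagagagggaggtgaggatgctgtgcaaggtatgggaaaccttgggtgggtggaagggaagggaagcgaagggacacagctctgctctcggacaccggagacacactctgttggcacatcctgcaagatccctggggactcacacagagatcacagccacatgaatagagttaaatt
Cd3e: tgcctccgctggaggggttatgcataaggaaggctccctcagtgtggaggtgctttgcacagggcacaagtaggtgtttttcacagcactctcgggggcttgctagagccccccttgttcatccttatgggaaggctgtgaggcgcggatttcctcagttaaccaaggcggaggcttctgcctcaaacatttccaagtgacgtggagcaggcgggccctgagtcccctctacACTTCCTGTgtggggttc
Cd79a: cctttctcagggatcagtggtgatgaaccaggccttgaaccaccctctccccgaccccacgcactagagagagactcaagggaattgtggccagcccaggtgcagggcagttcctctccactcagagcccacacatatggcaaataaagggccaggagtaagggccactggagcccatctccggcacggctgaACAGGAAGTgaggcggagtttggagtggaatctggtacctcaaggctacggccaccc
The motif was present in 2 of the 6 markers with a window, Cd3e, where it is written as its reverse complement ACTTCCTGT and starts 18 bases before the start site, and Cd79a, where it starts 57 bases before it. Of all 32851 windows of the same length in the table, 0.794% held it on either strand. Cd3e and Cd79a carried the motif in their windows and neither was called for IMQ or for diet.

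Cd4 rose with IMQ in both diets, Cd22 in CD-fed mice and Cd79b in HFD-fed mice, and no marker fell. The other 6 markers, including both CD3 chains, Cd8a, Foxp3, Cd79a and Ms4a1, were called in neither diet. In HFD-fed mice 2 of the 9 markers were called higher, against 3.65% of all genes, and 0 were called lower, against 2.24% of all genes. In CD-fed mice 2 of the 9 were called higher, against 3.91% of all genes, and 0 were called lower, against 7.02% of all genes. Over all genes in CD-fed mice 868 were called higher and 1556 lower, a split of 1108 and 1301 after the arrays were quantile normalized again. The median change of the 9 markers was 0.24 on the log2 scale in HFD-fed mice and 0.09 in CD-fed mice, where the medians of all genes were -0.001 and 0.016. Averaged over both diets, 3 of the 9 were called higher (Cd4, Cd22 and Cd79b), against 5.48% of all genes, and 0 were called lower, against 7.06% of all genes.

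**Figure D1:**
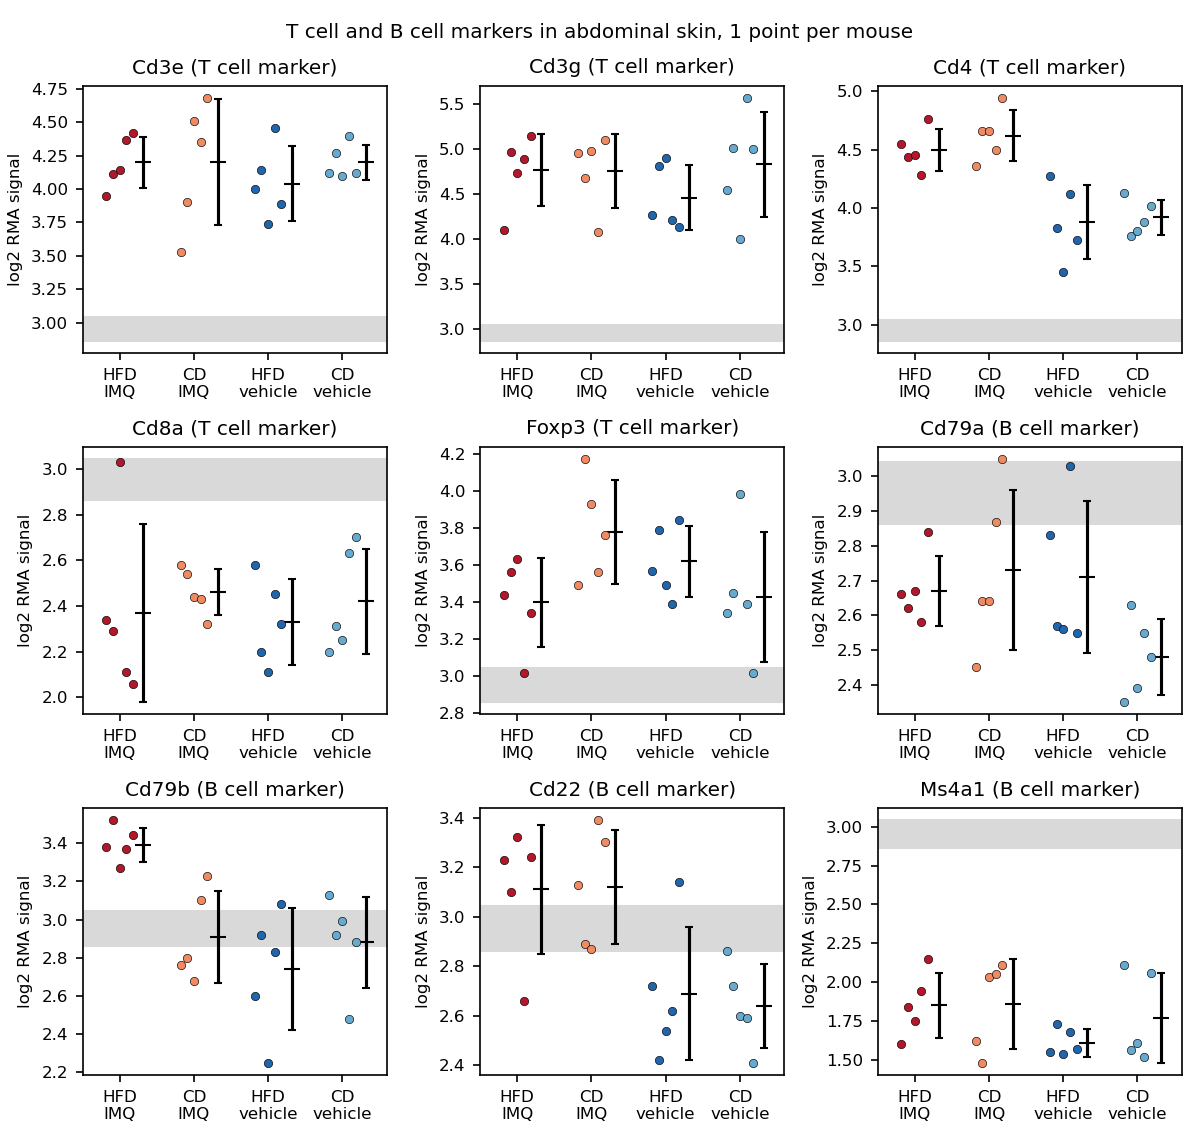
Log2 RMA signal (y axis) of each of the 9 markers in the 4 groups (x axis), with 1 point per mouse, n = 5 per group, a horizontal tick for the mean, bars of 1 SD and a grey band from the lowest to the highest array median (2.86 to 3.04). The Cd4 points of both IMQ groups lie above all points of their vehicle groups, while those of Cd3e and Cd3g intermingle.

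Cd3e and Cd3g encode chains of the CD3 complex and are the broadest T cell markers of the set. Cd3e had values of 3.95, 4.11, 4.14, 4.37 and 4.42 in HFD-IMQ skin, against 4.0, 4.14, 3.74, 4.46 and 3.89 in HFD-vehicle skin. In CD-IMQ skin Cd3e was 3.53, 3.90, 4.51, 4.35 and 4.68, against 4.12, 4.27, 4.10, 4.40 and 4.12 in CD-vehicle skin. The groups overlapped in both diets, and the CD-IMQ mice ran both below and above the narrow range of the CD-vehicle mice. The change of Cd3e was 0.15 ± 0.17 (log2, SE) in HFD-fed mice (limma adjusted p = 0.762) and -0.01 ± 0.17 in CD-fed mice (adjusted p = 0.985). Its 95% interval reached from -0.21 to 0.51 in HFD-fed mice and from -0.37 to 0.35 in CD-fed mice.

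Cd3g had values of 4.10, 4.97, 4.73, 4.89 and 5.15 in HFD-IMQ skin, against 4.27, 4.81, 4.90, 4.21 and 4.13 in HFD-vehicle skin. In CD-IMQ skin it was 4.96, 4.68, 4.98, 4.08 and 5.10, against 4.54, 5.01, 4.0, 5.57 and 5.00 in CD-vehicle skin. Both pairs of groups overlapped, and the CD-vehicle mice alone spread over more than a log2 unit. The change was 0.31 ± 0.25 in HFD-fed mice (adjusted p = 0.635) and -0.06 ± 0.25 in CD-fed mice (adjusted p = 0.921). The interval of -0.58 to 0.46 in CD-fed mice allows a moderate change in either direction. Across the 20 arrays the 2 CD3 chains followed each other weakly, with a Pearson r of 0.24, over points that share their array and group.

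Cd4, the coreceptor of helper T cells, was the marker that separated IMQ from vehicle in both diets. In HFD-IMQ skin its values were 4.55, 4.44, 4.45, 4.28 and 4.76, against 4.27, 3.83, 3.45, 4.12 and 3.73 in HFD-vehicle skin. In CD-IMQ skin they were 4.36, 4.66, 4.66, 4.50 and 4.94, against 4.13, 3.76, 3.80, 3.88 and 4.02 in CD-vehicle skin. Every IMQ mouse was above every vehicle mouse of its diet. In HFD-fed mice the gap was narrow, since the lowest IMQ mouse and the highest vehicle mouse differed in the second decimal. Cd4 averaged 4.50 ± 0.18 in HFD-IMQ skin and 3.88 ± 0.32 in HFD-vehicle skin, and 4.62 ± 0.22 in CD-IMQ skin and 3.92 ± 0.15 in CD-vehicle skin (SD, n = 5 each). The rise was 0.61 ± 0.14 in HFD-fed mice, 1.53-fold (limma adjusted p = 0.00813), and 0.70 ± 0.14 in CD-fed mice, 1.63-fold (adjusted p = 0.00184). Under 29 alternatives, each leaving out an array or changing the processing, the adjusted p for Cd4 stayed between 0.00272 and 0.0351 in HFD-fed mice and between 0.000707 and 0.00841 in CD-fed mice.

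The number of markers whose IMQ and vehicle groups did not overlap, IMQ being higher, was 2 of 9 in HFD-fed mice (Cd4 and Cd79b), against 3.67% of all genes. In CD-fed mice it was also 2 of 9 (Cd4 and Cd22), against 3.78% of all genes. On the same array, Cd4 minus Cd3e ranged from -0.10 to 0.59 in HFD-IMQ skin and from -0.34 to 0.26 in HFD-vehicle skin. The same difference ranged from 0.14 to 0.83 in CD-IMQ skin and from -0.52 to 0.01 in CD-vehicle skin. The ranges overlapped in HFD-fed mice and did not meet in CD-fed mice, and the difference has no test.

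Other genes were ranked by how like that of Cd4 their pattern over the 20 arrays was. Left out were names with Rik, names of capitals followed by a long number, and names beginning with Gm and a number, Mir, Snor, Olfr, Vmn, n-R or Rn. The most alike of the rest was Fcgr3, an Fc receptor of myeloid cells, with a Pearson r of 0.93. Next were Lpo with 0.89 and Laptm5, a lysosomal protein of leukocytes, with 0.89. After each array's value was taken relative to its group mean, r for these genes was 0.87, 0.72 and 0.64. Of 14 measured macrophage and monocyte genes, 0 were called lower with IMQ in either diet. The shares of all genes called lower were 2.24% in HFD-fed and 7.02% in CD-fed mice. In HFD-fed mice 11 of the 14 were called higher, against 3.65% of all genes, and in CD-fed mice 6 of the 14, against 3.91%. The count in HFD-fed mice was 7 without HFD-IMQ 1. The mean log2 signal of these 14 genes ranged from 7.65 to 8.25 in HFD-IMQ skin and from 6.70 to 7.37 in HFD-vehicle skin, and from 7.54 to 7.90 in CD-IMQ skin and from 7.17 to 7.56 in CD-vehicle skin. None of the 14 had a group mean below the array medians. Adgre1, a surface marker of mouse macrophages, averaged 8.57 ± 0.47 in HFD-IMQ skin and 6.65 ± 0.33 in HFD-vehicle skin, and 8.14 ± 0.24 in CD-IMQ skin and 7.03 ± 0.13 in CD-vehicle skin (SD, n = 5 each). It rose by 1.92 ± 0.18 in HFD-fed mice (adjusted p = 4.42e-07) and by 1.12 ± 0.18 in CD-fed mice (adjusted p = 0.000313). Of 13 measured dendritic and Langerhans cell genes, 1 was called higher and 1 lower in HFD-fed mice, against 3.65% and 2.24% of all genes. In CD-fed mice 1 was called higher and 3 lower, against 3.91% and 7.02%. Without HFD-vehicle 3 the calls of that list in HFD-fed mice numbered 4 in all, and its single higher call in CD-fed mice was lost without CD-IMQ 1, 3, 4 or 5 or CD-vehicle 1, 3 or 5, each left out alone. Its mean log2 signal ranged from 5.46 to 5.69 in HFD-IMQ skin and from 5.62 to 5.99 in HFD-vehicle skin, and from 5.61 to 5.81 in CD-IMQ skin and from 5.84 to 6.01 in CD-vehicle skin. The part of macrophages or dendritic cells in the Cd4 result was not tested.

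Cd8a, a chain of the coreceptor of cytotoxic T cells, stayed close to background. It ranged from 2.06 to 3.03 in HFD-IMQ skin, against 2.11 to 2.58 in HFD-vehicle skin, and from 2.32 to 2.58 in CD-IMQ skin, against 2.20 to 2.70 in CD-vehicle skin. HFD-IMQ 3 held the value of 3.03, the only Cd8a value of the 20 above the lowest array median. The change was 0.03 ± 0.15 in HFD-fed mice (limma adjusted p = 0.957) and 0.04 ± 0.15 in CD-fed mice (adjusted p = 0.905). At this level a change in cytotoxic T cell RNA may lie below what the probes resolve.

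Foxp3 had values of 3.44, 3.56, 3.63, 3.02 and 3.34 in HFD-IMQ skin, against 3.57, 3.79, 3.49, 3.39 and 3.84 in HFD-vehicle skin. In CD-IMQ skin it was 3.49, 4.17, 3.93, 3.56 and 3.76, against 3.34, 3.45, 3.98, 3.39 and 3.02 in CD-vehicle skin. The estimates had opposite signs in the 2 diets and the groups overlapped in both. The change was -0.22 ± 0.16 in HFD-fed mice (limma adjusted p = 0.574) and 0.35 ± 0.16 in CD-fed mice (adjusted p = 0.190). The CD-vehicle group owed its top value, 3.98, to CD-vehicle 3, and without that mouse the change in CD-fed mice was 0.48 and was called (adjusted p = 0.0488). The test of the difference between the diets gave -0.57 ± 0.23, with an unadjusted p of 0.0206 and an adjusted p of 0.223.

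Among B cell markers, Cd79b, a signalling chain of the B cell receptor, was called with IMQ in HFD-fed mice. Its values were 3.38, 3.52, 3.27, 3.37 and 3.44 in HFD-IMQ skin, against 2.60, 2.92, 2.25, 2.83 and 3.08 in HFD-vehicle skin. In CD-IMQ skin they were 2.76, 2.80, 2.68, 3.10 and 3.23, against 3.13, 2.92, 2.99, 2.48 and 2.88 in CD-vehicle skin. The HFD-IMQ mice lay close together and above all 15 other mice, whose groups overlapped one another. The rise was 0.66 ± 0.15 in HFD-fed mice, 1.58-fold (limma adjusted p = 0.00631), and stayed called under all 29 alternatives (adjusted p from 0.00194 to 0.0293). In CD-fed mice the change was 0.03 ± 0.15 (adjusted p = 0.936), with an interval of -0.27 to 0.33. The HFD-vehicle mean lay below all array medians, so the fold rests on a group close to background.

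Cd79a, the partner chain of Cd79b, ranged from 2.58 to 2.84 in HFD-IMQ skin, against 2.55 to 3.03 in HFD-vehicle skin, and from 2.45 to 3.05 in CD-IMQ skin, against 2.35 to 2.63 in CD-vehicle skin. Its change was -0.03 ± 0.12 in HFD-fed mice (limma adjusted p = 0.942) and 0.25 ± 0.12 in CD-fed mice (adjusted p = 0.196). Only Cd79b of this pair was called, and their Pearson r over the 20 arrays was 0.15. On the same array, Cd79b minus Cd79a ranged from 0.59 to 0.90 in HFD-IMQ skin and from -0.31 to 0.53 in HFD-vehicle skin. That difference ranged from 0.04 to 0.30 in CD-IMQ skin and from -0.07 to 0.77 in CD-vehicle skin. The HFD-IMQ range lay above that of HFD-vehicle skin, and the difference has no test.

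Cd22, an inhibitory receptor of B cells, had values of 3.23, 3.10, 3.32, 2.66 and 3.24 in HFD-IMQ skin, against 2.72, 2.42, 2.54, 2.62 and 3.14 in HFD-vehicle skin. In CD-IMQ skin they were 3.13, 2.89, 2.87, 3.39 and 3.30, against 2.86, 2.72, 2.60, 2.59 and 2.41 in CD-vehicle skin. The CD groups did not overlap, although the lowest CD-IMQ mouse and the highest CD-vehicle mouse were nearly equal. In HFD-fed mice the groups overlapped: HFD-IMQ 2 and 4 lay within the range of HFD-vehicle skin, and HFD-vehicle 1 and 5 within that of HFD-IMQ skin. The change was 0.48 ± 0.15 in CD-fed mice, 1.40-fold (limma adjusted p = 0.0360), and 0.42 ± 0.15 in HFD-fed mice, where it was not called (adjusted p = 0.102). The sizes were close in the 2 diets, and the test of their difference gave -0.06 ± 0.21 (adjusted p = 0.928).

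The Cd22 call in CD-fed mice was lost without CD-vehicle 3, 4 or 5, or without CD-IMQ 1, 4 or 5, each left out alone. Over these and the other single arrays left out its change ranged from 0.41 to 0.54 and its adjusted p from 0.0207 to 0.107. In HFD-fed mice Cd22 became called without HFD-IMQ 4 or without HFD-vehicle 5. Averaged over both diets it was called, at 0.45 ± 0.10 (adjusted p = 0.00418). The averaged Cd79b change, 0.34 ± 0.10 (adjusted p = 0.0288), was lost without HFD-IMQ 2, HFD-vehicle 3, CD-IMQ 4, CD-IMQ 5 or CD-vehicle 4, each left out alone (adjusted p up to 0.0622).

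Ms4a1, which encodes the B cell surface protein CD20, had the mean farthest below the array medians of the 9 markers. It ranged from 1.60 to 2.15 in HFD-IMQ skin, against 1.54 to 1.73 in HFD-vehicle skin, and from 1.48 to 2.11 in CD-IMQ skin, against 1.52 to 2.11 in CD-vehicle skin. The change was 0.24 ± 0.14 in HFD-fed mice (limma adjusted p = 0.449) and 0.09 ± 0.14 in CD-fed mice (adjusted p = 0.773). A fall from this level would be hard to see on the array.

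**Figure D2:**
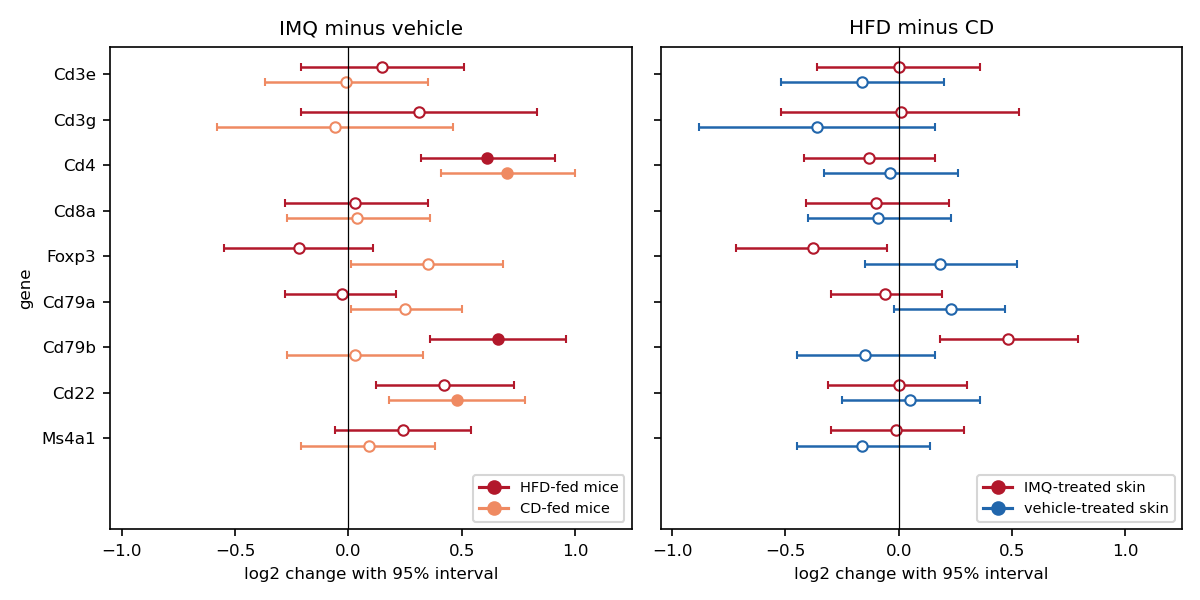
Log2 change of each marker (y axis) with its 95% interval from limma (x axis), for IMQ minus vehicle on the left, in HFD-fed and in CD-fed mice, and for HFD minus CD on the right, in IMQ-treated and in vehicle-treated skin. Filled points are called at adjusted p below 0.05, which are Cd4 in both diets, Cd79b in HFD-fed mice and Cd22 in CD-fed mice, with no filled point for diet.

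Between the diets none of the 9 markers was called. In IMQ-treated skin 0 of 22180 genes were called between HFD and CD, 0% in the limma fit, while 2289 genes had an unadjusted p below 0.05. Among the markers 2 of the 9 had such a p, Cd79b and Foxp3. Cd79b averaged 3.39 ± 0.09 in HFD-IMQ skin and 2.91 ± 0.24 in CD-IMQ skin (SD, n = 5 each), a difference of 0.48 ± 0.15 (unadjusted p = 0.00311, adjusted p = 0.310). It was the 1 marker of the 9 whose HFD-IMQ mice all lay above the CD-IMQ mice, against 0.992% of all genes. Foxp3 averaged 3.40 ± 0.24 in HFD-IMQ skin and 3.78 ± 0.28 in CD-IMQ skin (SD, n = 5 each), a difference of -0.38 ± 0.16 (unadjusted p = 0.0264, adjusted p = 0.413), and its groups overlapped.

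None of the other markers had an unadjusted p below 0.05 between diets in IMQ-treated skin. The Cd4 difference was -0.13 ± 0.14, with an interval of -0.42 to 0.16, and the Cd3e difference 0.00 ± 0.17, with an interval of -0.36 to 0.36. Ordered by level, Cd4 was highest in CD-IMQ skin, followed by HFD-IMQ, CD-vehicle and HFD-vehicle skin. The 2 IMQ groups, and the 2 vehicle groups, did not differ beyond their spread.

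In vehicle-treated skin 0 of the 9 markers were called between HFD and CD, against 2.18% of all genes. None of the markers had an unadjusted p below 0.05 in limma, while 3255 of all 22180 genes did. The largest difference in size was that of Cd3g, -0.36 ± 0.25, with 4.46 ± 0.36 in HFD-vehicle skin and 4.83 ± 0.59 in CD-vehicle skin (SD, n = 5 each). The next in size was Cd79a, 0.23 ± 0.12 (adjusted p = 0.389).

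The interaction of diet and IMQ asks whether the IMQ change in HFD-fed mice differs from that in CD-fed mice. It was called for 0 of the 9 markers by limma, against 0.663% of all genes. An unadjusted p below 0.05 was found for 2 of the 9, and for 3528 of all 22180 genes. Over all genes the 147 calls split into 105 higher and 42 lower, into 58 and 41 after renewed quantile normalization, and into 134 and 30 with arrays centred on their medians. The 2 markers with an unadjusted p below 0.05 were Cd79b, at 0.63 ± 0.21 (unadjusted p = 0.00587, adjusted p = 0.132), and Foxp3, given above. A larger IMQ change of Cd79b in HFD-fed mice was therefore not established by the test over all genes. For Cd4 the interaction was -0.09 ± 0.20, with an interval of -0.50 to 0.32.

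Across the 20 arrays the 36 pairs of markers had Pearson r between -0.32 and 0.68, with a median of 0.14. The highest was that of Cd4 with Cd22, at 0.68, and relative to the group means it was 0.18. Cd3e and Cd79a stood at 0.56 and at 0.74 relative to the group means. The patterns nearest to Cd79b were those of Mtr with 0.83, Sla with 0.81 and Ms4a14 with 0.80, and the nearest to Cd22 were Zc3h12a with 0.82, Defb3 with 0.81 and Map3k11 with 0.81. For Cd3e they were Tmem178b with 0.74, Htr1a with 0.67 and Agxt with 0.67, and for Cd3g they were Tas2r140 with 0.75, Dalrd3 with 0.75 and Washc3 with 0.74. For Foxp3 the nearest were Obp2b with 0.72, Npas1 with 0.71 and Gstm3 with 0.70. None of these genes is another of the 9 markers. Each r is over 20 arrays that share the 4 groups and is given with no p. The kinds of gene name left out for Cd4 were left out of these rankings too.

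Most other genes of the T cell receptor machinery were not called. Of 14 measured genes of the receptor complex and its proximal signalling, 2 were called higher and 0 lower in HFD-fed mice, against 3.65% and 2.24% of all genes. In CD-fed mice 1 was called higher and 1 lower, against 3.91% and 7.02%. In HFD-fed mice these were the adaptors Fyb, 1.67 ± 0.21 (limma adjusted p = 1.56e-05), and Lcp2, 1.02 ± 0.19 (adjusted p = 0.00126), both of which other leukocytes use too. In CD-fed mice the adaptor Lat rose by 0.54 ± 0.16 (adjusted p = 0.0310) and Trat1, which encodes a receptor-associated transmembrane adaptor, changed by -0.55 ± 0.12 (adjusted p = 0.00287), with means below all array medians in every group. Only 1 of the genes stayed called in CD-fed mice without CD-IMQ 1, 3 or 5 or CD-vehicle 1, 2, 4 or 5, each left out alone. The median change of the list was 0.13 in each diet.

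Further T cell surface genes, named here after their values were seen, were not called either. The third CD3 chain Cd3d averaged 3.67 ± 0.35 in HFD-IMQ skin and 3.38 ± 0.17 in HFD-vehicle skin, and 3.54 ± 0.25 in CD-IMQ skin and 3.76 ± 0.32 in CD-vehicle skin (SD, n = 5 each). Cd2 changed by 0.11 ± 0.14 in HFD-fed mice (adjusted p = 0.810) and by -0.26 ± 0.14 in CD-fed mice (adjusted p = 0.277). Cd8b1, the partner chain of Cd8a, changed by -0.32 ± 0.18 in HFD-fed mice (adjusted p = 0.402) and by 0.19 ± 0.18 in CD-fed mice (adjusted p = 0.575), with group means below all array medians.

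Of 13 genes of CD8 and cytotoxic lymphocytes, 1 was called higher and 0 lower in HFD-fed mice, against 3.65% and 2.24% of all genes. In CD-fed mice 0 were called higher and 1 lower, against 3.91% and 7.02%. The first was Gzma, a granule protease, which averaged 3.47 ± 0.70 in HFD-IMQ skin and 1.74 ± 0.17 in HFD-vehicle skin (SD, n = 5 each; 1.73 ± 0.27, limma adjusted p = 0.000257). The HFD-vehicle mean of Gzma lay below all array medians, so the size of this change is uncertain. The second was Klrk1, the activating receptor NKG2D, at -0.54 ± 0.17 (adjusted p = 0.0411). The CD-IMQ mean of Klrk1, 2.71, lay below all array medians, so the size of this change is uncertain too. Gzma is also made by natural killer cells. In CD-fed mice the list had 0 calls without CD-IMQ 4 or 5 or CD-vehicle 1, 3 or 4, and 2 calls without HFD-IMQ 4 or CD-vehicle 2. In HFD-fed mice it had 2 without HFD-IMQ 1.

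Of 11 regulatory T cell genes, 1 was called in each diet, Tigit higher in HFD-fed mice at 0.41 ± 0.12 (limma adjusted p = 0.0370) and Ikzf2 lower in CD-fed mice at -0.52 ± 0.13 (adjusted p = 0.00944). Of all genes, 3.65% were called higher in HFD-fed mice and 7.02% lower in CD-fed mice. Ikzf2, the transcription factor Helios, was also lower in HFD-vehicle than in CD-vehicle skin, at -0.49 ± 0.13 (adjusted p = 0.0427). Foxp3, which is not counted in this list, was called in none of these comparisons. All 4 group means of Tigit lay below every array median, so the size of its change is uncertain. The Tigit call was lost without any 1 of HFD-IMQ 1, 3, 4 or 5 or HFD-vehicle 1, 2, 3 or 4.

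Of 10 measured genes of gamma delta and epidermal T cells, 2 were called higher and 0 lower in each diet. The shares of all genes called higher and lower were 3.65% and 2.24% in HFD-fed mice, and 3.91% and 7.02% in CD-fed mice. Trgv6, a variable segment of the gamma chain of the receptor, averaged 3.18 ± 0.53 in HFD-IMQ skin and 2.38 ± 0.16 in HFD-vehicle skin, and 2.98 ± 0.32 in CD-IMQ skin and 2.33 ± 0.16 in CD-vehicle skin (SD, n = 5 each). Its groups did not overlap in either diet, and it rose by 0.80 ± 0.19 in HFD-fed mice (limma adjusted p = 0.0108) and 0.65 ± 0.19 in CD-fed mice (adjusted p = 0.0282). The Trgv6 means of both vehicle groups lay below all array medians. Trgv5, the variable segment of epidermal T cells, named here after its values were seen, was not called and had estimates of the other sign. It averaged 2.88 ± 0.54 in HFD-IMQ skin and 3.26 ± 0.40 in HFD-vehicle skin, a change of -0.38 ± 0.31 (adjusted p = 0.631). In CD-IMQ skin it averaged 2.86 ± 0.35 and in CD-vehicle skin 3.63 ± 0.83, a change of -0.76 ± 0.31 (SD, n = 5 each; limma adjusted p = 0.126). The second gene called was Cd200r1 in HFD-fed mice, at 0.89 ± 0.16 (adjusted p = 0.00126), and the cytokine Il17f in CD-fed mice, at 0.72 ± 0.13 (adjusted p = 0.00105). Which cells carried the Cd200r1 rise was not tested. Averaged over both diets, 5 of the 10 were called higher, the others being Il23r and Cd163l1, against 5.48% of all genes. In CD-fed mice 1 gene was called without CD-IMQ 1 or 5 or CD-vehicle 1, 4 or 5, and 4 were called without CD-vehicle 3. The constant segments of the gamma and delta chains had no feature with their symbol alone and were not analysed here.

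Of 13 T cell homing and residence genes, 2 were called higher and 1 lower in each diet. The shares of all genes called higher and lower were 3.65% and 2.24% in HFD-fed mice, and 3.91% and 7.02% in CD-fed mice. Selplg, a ligand of selectins, rose by 1.0 ± 0.16 in HFD-fed mice (limma adjusted p = 0.000334) and 0.77 ± 0.16 in CD-fed mice (adjusted p = 0.00322). Which cells carried the Selplg rise was not tested. Cxcr6, a chemokine receptor of tissue T cells, rose by 1.08 ± 0.21 in HFD-fed mice (adjusted p = 0.00243) and 0.95 ± 0.21 in CD-fed mice (adjusted p = 0.00520). The Cxcr6 means of both vehicle groups lay below all array medians, so the size of its rise is uncertain. The genes called lower were transcription factors that other skin cells also make, Lef1 in HFD-fed mice at -1.46 ± 0.27 (adjusted p = 0.00138) and Klf2 in CD-fed mice at -1.55 ± 0.20 (adjusted p = 1.17e-05).

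On the B cell side, 3 of 16 identity and receptor signalling genes were called higher and 0 lower in HFD-fed mice, against 3.65% and 2.24% of all genes. In CD-fed mice 1 was called higher and 1 lower, against 3.91% and 7.02%. In HFD-fed mice these were the kinases Btk, 1.0 ± 0.18 (limma adjusted p = 0.000941), and Syk, 0.71 ± 0.16 (adjusted p = 0.00823), and the tetraspanin Cd37, 0.60 ± 0.14 (adjusted p = 0.0116). Myeloid cells express Btk, Syk and Cd37 as well. In CD-fed mice the adaptor Blnk rose by 0.61 ± 0.13 (adjusted p = 0.00413) and the transcription factor Ebf1, which fat and stromal cells also make, changed by -0.94 ± 0.17 (adjusted p = 0.000630). The median change of the list was 0.07 in HFD-fed mice and 0.20 in CD-fed mice. Of the 16 measured genes, 8 had a mean below the array medians in each vehicle group.

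Of 9 measured plasma cell and immunoglobulin genes, 1 was called higher and 0 lower in HFD-fed mice, against 3.65% and 2.24% of all genes. In CD-fed mice 1 was called higher and 0 lower, against 3.91% and 7.02%. These were Ighm, the heavy chain of immunoglobulin M, in HFD-fed mice at 0.65 ± 0.16 (limma adjusted p = 0.0161) and the transcription factor Prdm1, which keratinocytes also make, in CD-fed mice at 0.71 ± 0.16 (adjusted p = 0.00573). Ighm is read by several features, of which the brightest was used, and with the mean of all of them the list had 0 calls in HFD-fed mice. The list also had 0 calls in HFD-fed mice without HFD-IMQ 1, 2 without HFD-IMQ 3 or HFD-vehicle 4, and in CD-fed mice 2 without CD-IMQ 4, HFD-vehicle 3 or CD-vehicle 4. The immunoglobulin genes Igkc, Iglc1, Iglc2, Igha, Ighd, Ighe, Ighg1, Ighg2b and Ighg2c had no feature with their symbol alone and were not analysed here.

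Among 14 measured lymphocyte chemoattractants and survival factors, 2 were called higher and 0 lower in HFD-fed mice, against 3.65% and 2.24% of all genes. In CD-fed mice 1 was called higher and 0 lower, against 3.91% and 7.02%. Cxcl13, the chemokine that attracts B cells to lymphoid follicles, had the largest change of this list in both diets. It averaged 8.03 ± 0.57 in HFD-IMQ skin and 5.60 ± 0.47 in HFD-vehicle skin, and 7.19 ± 0.60 in CD-IMQ skin and 6.01 ± 0.42 in CD-vehicle skin (SD, n = 5 each). It rose 5.39-fold in HFD-fed mice (2.43 ± 0.29, limma adjusted p = 7.01e-06) and 2.26-fold in CD-fed mice (1.17 ± 0.29, adjusted p = 0.00922). The other called gene was Cxcl12, at 0.73 ± 0.17 in HFD-fed mice (adjusted p = 0.00758). The list had 4 calls in HFD-fed mice without HFD-IMQ 2, and 2 in CD-fed mice without CD-IMQ 1, CD-IMQ 3 or CD-vehicle 1.

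**Figure D3:**
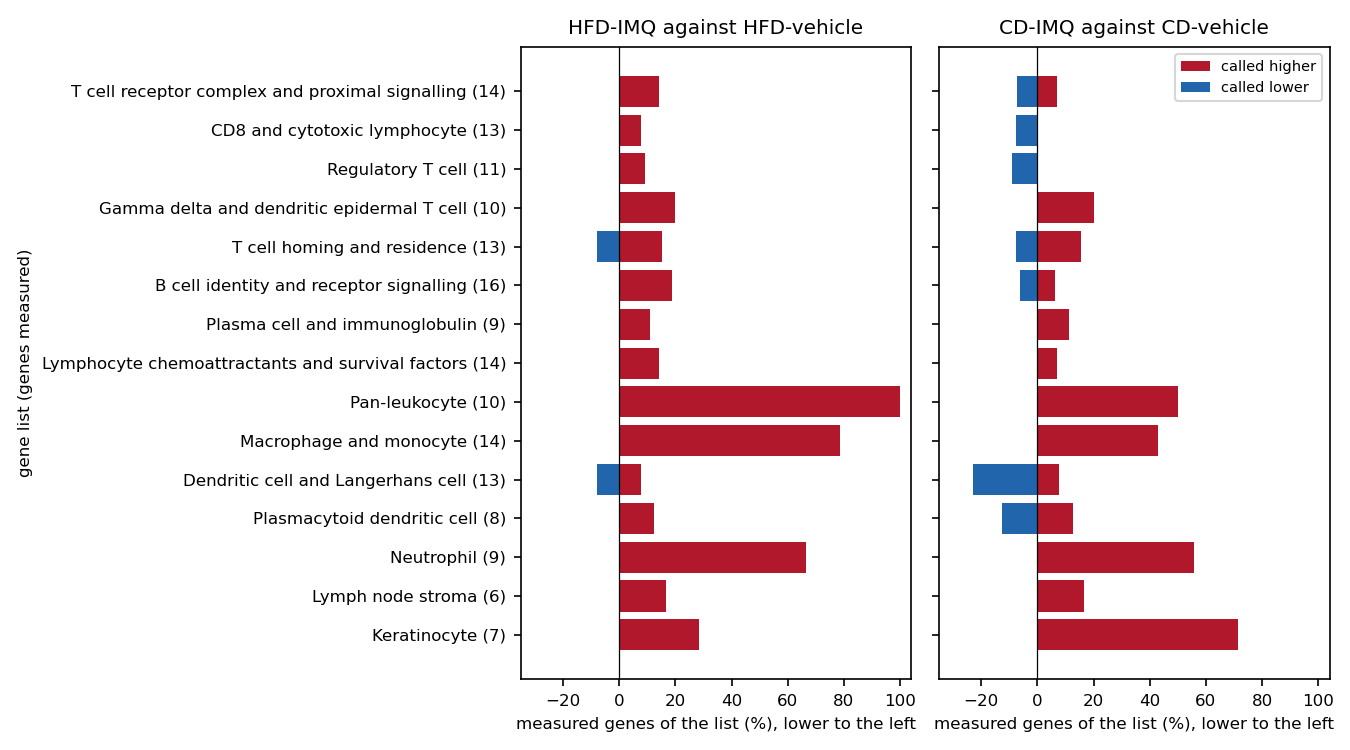
Share of the measured genes of each list called higher (right of 0) or lower (left of 0) with IMQ (x axis, percent), in HFD-fed mice on the left and CD-fed mice on the right, with the number of measured genes beside each list name (y axis). The pan-leukocyte and macrophage lists reach 10 of 10 and 11 of 14 genes in HFD-fed mice, while the T cell receptor list reaches 2 of 14 and the B cell list 3 of 16.

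Genes shared by leukocytes of all kinds were set beside the markers. Of 10 pan-leukocyte genes, 10 were called higher and 0 lower in HFD-fed mice, against 3.65% and 2.24% of all genes. In CD-fed mice 5 were called higher and 0 lower, against 3.91% and 7.02%. The mean log2 signal of the 10 genes ranged from 6.48 to 7.24 in HFD-IMQ skin and from 5.33 to 5.98 in HFD-vehicle skin. It ranged from 6.33 to 6.71 in CD-IMQ skin and from 5.77 to 6.15 in CD-vehicle skin. The mean of the T cell receptor list ranged from 3.33 to 3.52 in HFD-IMQ skin and from 3.02 to 3.27 in HFD-vehicle skin, and from 3.29 to 3.55 in CD-IMQ skin and from 3.17 to 3.40 in CD-vehicle skin. The B cell list ranged from 3.66 to 3.80 in HFD-IMQ skin and from 3.42 to 3.58 in HFD-vehicle skin, and from 3.55 to 3.74 in CD-IMQ skin and from 3.46 to 3.6 in CD-vehicle skin. HFD-vehicle 3, the array farthest from its group, was the lowest of all 20 in these 4 lists.

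**Figure D4:**
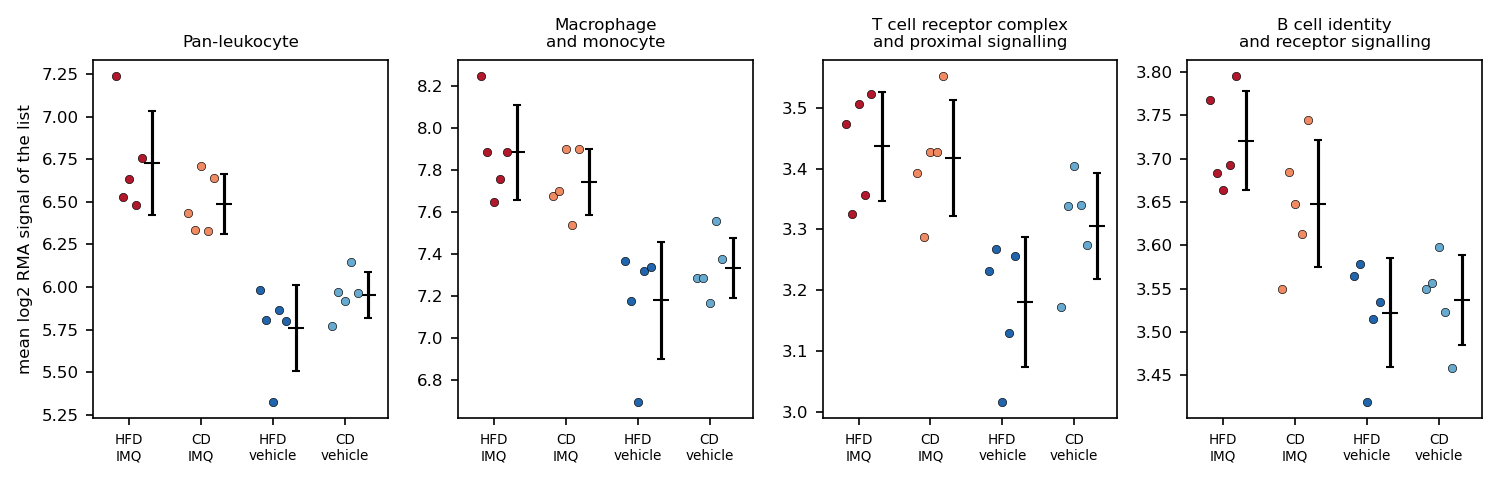
Mean log2 RMA signal of a gene list per mouse (y axis) in the 4 groups (x axis), for the pan-leukocyte, macrophage and monocyte, T cell receptor and B cell lists, with the group mean and bars of 1 SD, n = 5 per group. In every panel the HFD-IMQ values lie above the HFD-vehicle values, and HFD-vehicle 3 is the low point. Between CD-IMQ and CD-vehicle skin only the pan-leukocyte values do not overlap, with CD-IMQ higher.

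Neutrophil genes also moved with IMQ. In HFD-fed mice 6 of 9 were called higher and 0 lower, against 3.65% and 2.24% of all genes. In CD-fed mice 5 of 9 were called higher and 0 lower, against 3.91% and 7.02%. The neutrophil mean ranged from 4.58 to 5.18 in HFD-IMQ skin and from 3.03 to 3.53 in HFD-vehicle skin, and from 4.43 to 4.87 in CD-IMQ skin and from 2.68 to 3.12 in CD-vehicle skin. The calprotectin genes S100a8 and S100a9, which keratinocytes also make, had the largest changes of that list, 4.78 ± 0.37 and 4.77 ± 0.29 in HFD-fed mice and 6.13 ± 0.37 and 5.56 ± 0.29 in CD-fed mice. Ly6g, Mpo and Elane, named here after their values were seen, were not called and had means below all array medians in every group. Of 6 measured lymph node stroma genes, 1 was called higher in each diet, against 3.65% of all genes in HFD-fed mice and 3.91% in CD-fed mice. The list mean ranged from 5.26 to 5.42 in HFD-IMQ skin and from 5.21 to 5.41 in HFD-vehicle skin. It ranged from 5.03 to 5.33 in CD-IMQ skin and from 5.05 to 5.27 in CD-vehicle skin. The single call of the lymph node list was lost in CD-fed mice without any 1 of 14 arrays and in HFD-fed mice without any 1 of 5. The part of neutrophils or of lymph node tissue in the Cd4, Cd22 and Cd79b results was not tested.

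Without HFD-IMQ 4, HFD-vehicle 3 and CD-vehicle 3 together, Cd4 and Cd79b in HFD-fed mice and Cd4 and Cd22 in CD-fed mice were still called. The changes were then 0.56 and 0.54 for Cd4 and Cd79b in HFD-fed mice, and 0.67 and 0.47 for Cd4 and Cd22 in CD-fed mice. Foxp3 joined them in CD-fed mice, at 0.48 (limma adjusted p = 0.0313). The Cd79b change averaged over both diets was then 0.30 and was not called (adjusted p = 0.0592). These 3 arrays were chosen after the data were seen.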

How the data were processed

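RNA from abdominal skin of 20 mice was hybridised to Affymetrix gene arrays, starting from 300 ng of total RNA per the labels' protocols. The deposited values are log2 signals per feature that the authors computed with RMA in the affy package, per the submitters' processing notes. No tool version, scan batch or statement on joint normalisation is given in the sources used here. The number of arrays limits the precision.

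Of 41345 features, 23521 carried 1 gene symbol in the platform annotation, 1814 carried several and 16010 carried none. Symbols named 22180 genes, and 23328 of the single-symbol features matched RefSeq. Per gene the feature with the highest mean was kept, and no filter on dim features was used. All genes entered 1 limma (version 3.58.1, R 4.3.3) fit of the 4 groups with lmFit and eBayes, and p-values were adjusted over all 22180 genes by Benjamini-Hochberg, with calls below 0.05. The fit was tested on simulated data with known answers, where it missed most of the smallest changes and found nearly all larger ones. The simulation used independent noise and changed fewer genes than were called with IMQ in either diet. Whether the same recovery holds for the real data was not tested. Each group holds 5 mice that the labels call biological replicates.

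The 9 markers and 15 gene lists (202 genes, 167 measured) were chosen with earlier results of these data known. The lists are read by counts of calls, median changes and mean signals, and no list was tested as a whole. The text names the 9 markers and up to 4 called genes of a list per comparison with the largest change. It also names the 3 genes most correlated with a marker, after the kinds of gene name given above were left out. Other genes are marked as chosen later. Alternatives were renewed quantile normalization, centring on the array median, a filter on dim genes, the mean of all features, only the groups compared, robust limma-trend, array weights, a replicate block, each array left out, and, added later, 3 arrays left out. Coordinates of array features are not printed, since the sources used here name no build.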

Additional observations from a re-analysis of the deposited data

Results flagged for a closer look

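None of the 36 sets of 5 mice formed by the 9 markers and 4 groups had a mouse set apart from its group by the gap test (Dixon's ratio above 0.71, which flags about 1 in 20 groups by chance). Among further list genes the test found 11 of 244 such sets, given here as log2 signals. CD-vehicle 3 stood above its group for Cd200r1 (4.50), Fyb (4.78), Lat (3.64) and Syk (5.53). HFD-vehicle 3 stood apart for Blk (2.39), Epcam (6.76) and H2-Aa (8.03), and HFD-vehicle 5 for Tigit (1.86). HFD-IMQ 4 stood apart for Irf7 (6.66), HFD-IMQ 1 for Vav1 (6.55) and CD-vehicle 1 also for Vav1 (4.31).

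The IMQ change of Klf2, a transcription factor of lymphocyte homing that endothelial cells also make, differed between the diets in the interaction test, by 1.58 ± 0.28 on the log2 scale (limma adjusted p = 0.00966). Klf2 averaged 5.34 ± 0.34 in HFD-IMQ skin and 5.32 ± 0.12 in HFD-vehicle skin, and 5.47 ± 0.30 in CD-IMQ skin and 7.03 ± 0.49 in CD-vehicle skin (SD, n = 5 each). CD-vehicle skin stood above the other 3 groups, and the difference of HFD-vehicle minus CD-vehicle skin was -1.71 ± 0.20 (adjusted p = 3.74e-05).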

How the results depend on the processing

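The Cd4 calls in both diets and the Cd79b call in HFD-fed mice held under every alternative run. The filter on dim genes removed Cd22 and left 1 marker called in CD-fed mice; leaving out single arrays gave 1 to 2. Array weights made Cd22 called in HFD-fed mice (adjusted p = 0.0445). With the replicate number as a block 2 markers were called in each diet, and all-gene calls were 1209 in HFD-fed and 2247 in CD-fed mice; the block lost no marker call. Deviations of same-numbered mice correlated above 0.1 in 4 of 30 pairs (-0.217 to 0.320). Differently numbered mice were not compared, so these values cannot show whether the numbers pair the mice. Calls over all genes between HFD and CD in IMQ skin numbered 1 with the filter, 1 with the mean of features, 1 with limma-trend, 30 without the 3 arrays chosen after seeing the data, and 0 to 20 with single arrays left out. In vehicle skin they numbered 137 from its groups alone, 230 without the 3 arrays and 231 to 574 leaving out single arrays; interaction calls were 57 to 198.

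Small uncalled changes turned sign, for which the cause was not tested. Renewed quantile normalization gave Cd3e 0.037 for IMQ in CD-fed mice, Cd3e -0.020, Cd3g -0.019, Cd22 0.039 and Ms4a1 0.038 for diet in IMQ skin, and Cd8a 0.015 for the interaction. Median centring gave Cd22 0.042 and Ms4a1 0.040 for diet in IMQ skin, and Cd8a 0.026 for the interaction. Array weights gave Cd3e -0.013, Cd3g -0.067 and Cd22 0.048 for diet in IMQ skin, and Cd8a 0.018 for the interaction. Without the 3 arrays these were Cd3e -0.041, Cd3g -0.027 and Cd22 0.11 for diet in IMQ skin, Cd4 0.041 and Cd79b 0.0039 in vehicle skin, and Cd8a 0.042 and Cd22 0.030 for the interaction.

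With single arrays left out, the IMQ change in CD-fed mice ranged from -0.13 to 0.16 for Cd3e, -0.27 to 0.12 for Cd3g, -0.0089 to 0.11 for Cd8a and -0.070 to 0.091 for Cd79b. In HFD-fed mice it ranged from -0.13 to 0.11 for Cd8a and -0.077 to 0.046 for Cd79a, and averaged over diets from -0.043 to 0.078 for Cd8a. The diet difference in IMQ skin ranged from -0.16 to 0.12 for Cd3e, -0.17 to 0.17 for Cd3g, -0.13 to 0.021 for Cd79a, -0.066 to 0.11 for Cd22 and -0.10 to 0.058 for Ms4a1. In vehicle skin it ranged from -0.13 to 0.071 for Cd4 and -0.060 to 0.12 for Cd22. The interaction ranged from -0.0038 to 0.28 for Cd3e, -0.20 to 0.0062 for Cd4, -0.18 to 0.067 for Cd8a and -0.12 to 0.056 for Cd22. Signals near or below the array medians limit what Cd8a, Cd79a, Cd79b, Cd22 and Ms4a1 can show.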
